A study of Mus musculus with 90 samples.

Results

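The choroid plexus of mice exposed to chronic social stress (CSS) was compared with that of control mice in every area of interest (AOI) that the labels place in the choroid plexus, 16 of the 90 AOIs of the series. RNA was measured with the GeoMx Digital Spatial Profiler, which counts, by sequencing, the gene probes that light frees from a selected area of a slide, and the probe set was the mouse Whole Transcriptome Atlas. The sections were 5 µm thick and came from brains fixed in formalin and embedded in paraffin. The CSS group had 9 choroid plexus AOIs from 5 mice (1152, 1157, 1162, 1163 and 1170), 5 labelled p16 high and 4 labelled p16 low. The control group (ctrl) had 7 from 4 mice (1151, 1168, 1175 and 1182), 4 labelled p16 high and 3 p16 low. Mice 1163 and 1182 had a p16 high AOI alone, and the series has 1 further CSS mouse without a choroid plexus AOI. p16 is the cell cycle inhibitor encoded by Cdkn2a. How p16 status was assigned, and the strain, sex and age of the mice, the stress procedure, its length and the hour of tissue collection, are not stated in the labels. The other 74 AOIs lie in the hippocampal fields CA1 and CA3 and in the motor (MC) and somatosensory (SS) cortex of the same animals, and were used only to ask whether a stress difference was larger in the choroid plexus than elsewhere.

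The choroid plexus is a folded epithelium in the brain ventricles, resting on a stroma with leaky vessels. It secretes cerebrospinal fluid by moving ions and water across its cells, secretes carrier proteins such as transthyretin, and forms the barrier between blood and that fluid. It also runs a strong circadian clock of its own and carries receptors for glucocorticoids, the hormones released under stress. In the clock, CLOCK or NPAS2 pairs with BMAL1 (gene Arntl) and drives genes that carry E-box sites. Among those are the Per and Cry genes, whose proteins shut the drive off again, and Dbp, Hlf and Tef, 3 related transcription factors that pass the rhythm on to other genes.

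Values are the authors' signal, a probe count scaled so that each AOI has the same median over genes (22.1). Differences were taken as log2(signal + 1), CSS minus control, with 1 value per mouse, so that n = 5 against 4. They understate the change of genes of low signal, and 19.8% of the values in choroid plexus did not exceed the negative control probe of their AOI. Recovered probe counts per AOI ran from 240980 to 1396318. Mean counts per mouse were 595364 ± 304324 (SD) in CSS and 836833 ± 443583 in control mice, which did not differ beyond their spread (2-sided exact permutation p = 0.365, where 5 against 4 mice allow no p below 0.0159). The ratio of the gene median to the negative probe averaged 1.67 ± 0.15 against 1.66 ± 0.25 (exact permutation p = 0.976). The areas held choroid plexus by their markers. Of 15 choroid plexus epithelium markers, 14 had at least 2 times the negative probe, and their summed signal ran from 78257 to 108890 in CSS and from 59112 to 114270 in control mice. Ttr, the transthyretin gene, alone took 9.30% ± 0.93 of all counts in CSS and 9.25% ± 1.41 in control mice (exact permutation p = 0.968). For each of the 9 other marker lists the ranges of the summed signal in the 2 groups overlapped. Ependymal markers had 8 of 10 members at 2 times the negative probe or more, stromal fibroblast markers 9 of 14, endothelial markers 8 of 14 and mural cell markers 3 of 11. Neuronal markers had 4 of 14, astrocyte markers 4 of 12, oligodendrocyte markers 6 of 10, and macrophage and microglia markers 7 of 22. Blood cell markers had 2 of 8, and their summed signal varied most between mice, from 169 to 2737 in CSS and from 212 to 2634 in control mice.

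Some libraries stood apart from the rest. The first principal component of the 16 AOIs carried 27.3% of the variance and was led by both AOIs of control mouse 1175, at -35.6 and -29.5 against -14.3 to 16.5 for all others. That mouse had the most counts (1312420 per AOI), the lowest gene median over the negative probe (1.36) and the lowest Ttr share (7.20%). The second component, with 12.6%, was set by the p16 low AOI of CSS mouse 1170, at -38.3, an AOI with 240980 counts in which 13 genes had over 4 times the signal of any other choroid plexus AOI. S1pr2, the gene of a sphingosine 1-phosphate receptor, named after its values were seen, led them at 618 against 28.4 in the next AOI. Of the first component 95.9% lay between mice and 2.26% between the stress groups. For the median gene with at least 2 times the negative probe, 72.1% of the variance lay between mice, 2.59% between the stress groups and 2.34% between p16 labels. Unrelated values would give mean shares of 53.3%, 6.67% and 6.67%. The median share of unrelated values can lie below such a mean, so the last 2 shares are not shown to be smaller than chance gives. The plot of the 2 components shows both stress groups mixed apart from these areas.

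**Figure D1:**
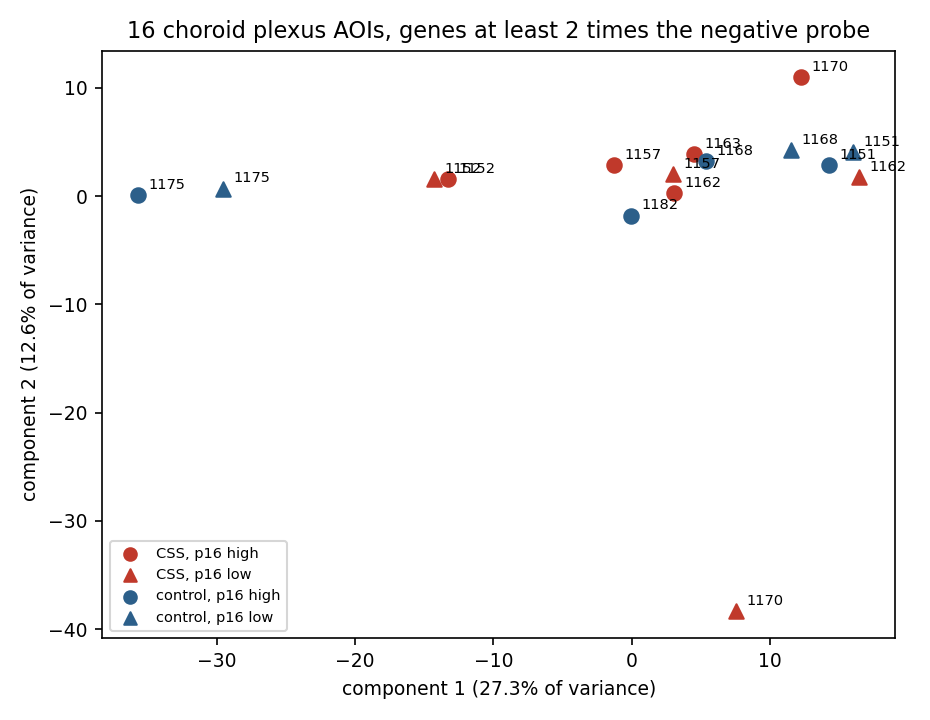
Scores of the 16 choroid plexus AOIs on the first 2 principal components of log2(signal + 1), over genes with a mean of at least 2 times the negative probe. Colour gives the stress group, the symbol the p16 label and the number the mouse; mouse 1175 lies at the far left at -35.6 and -29.5, and the p16 low AOI of mouse 1170 at the bottom at -38.3.

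No gene of the choroid plexus passed the test between CSS and control mice. Of 19962 genes, 0 (0%) had a Benjamini-Hochberg adjusted p under 0.05 with limma, and the lowest adjusted p was 0.999. Without adjustment, 3.28% of genes had a p under 0.05, the share to set beside such counts in the gene lists below. Of these, 329 (1.65% of all genes) had a higher level in CSS and 326 (1.63%) a lower one. With each AOI scaled to its 75th percentile this split was 207 higher and 399 lower, and with the depth of each mouse as a covariate 696 higher and 328 lower. After centring within p16 label, as meant wherever groups are called apart or overlapping, the 2 groups of mice did not overlap in 87 genes that were higher in CSS (0.436%) and in 112 that were lower (0.561%). For the 7586 genes with at least 2 times the negative probe the median SE was 0.19 on the log2 scale. For 98.9% of them the 95% interval lay within 1 log2 unit of 0, which is a change of 2-fold in signal. Such intervals here are not adjusted for the number of genes. The signal still holds the background, so a change in RNA can be larger than that in signal for genes near it. Differences below 2-fold can be present, and the test does not show that the groups are alike. edgeR, run on the recovered counts, called 2 genes as higher in CSS (adjusted p = 0.0239). Both were named after their values were seen, and each had 1 AOI above all others. The integrin gene Itgb2 had a signal of 310 in the p16 low AOI of mouse 1162 and at most 22.1 in any other choroid plexus AOI. Its difference was 0.01 within p16 high AOIs alone, which leave that area out. The odorant receptor gene Olfr706 had 72.4 in the p16 high AOI of mouse 1152 and at most 25.7 elsewhere. Within p16 low AOIs alone, without that area, Olfr706 still differed by 0.87.

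The gene with the lowest p was Dbp, an output of the circadian clock. By p it had rank 6 without the variance trend of the model and rank 10 with the depth of each mouse as a covariate. Within p16 low AOIs alone it had rank 319. Dbp lies on chromosome 7 (45705100 to 45710203, GRCm38.p6) and encodes a transcription factor whose level follows the clock closely in many tissues. Its signal was 113.0 in CSS mouse 1152, 152 in 1157, 162 in 1162, 177 in 1163 and 180 in 1170, against 113.5 in control mouse 1151, 98.4 in 1168, 68.0 in 1175 and 80.0 in 1182. Mice 1152 and 1151 touched on this scale, and the other 4 CSS mice lay above all controls. After centring within p16 label the 2 groups did not overlap. The mean was 157 ± 27.0 (SD, n = 5) in CSS and 90.0 ± 20.04 (n = 4) in control mice, a log2 difference of 0.80 (SE 0.19, 95% interval 0.41 to 1.19) or 1.74-fold, which did not pass over all genes (limma adjusted p = 0.999).

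Whether Dbp passed depended on the scaling. It was the only gene called when each AOI was scaled to its 75th percentile (log2 0.76, limma adjusted p = 0.0498) and the only gene called after quantile normalization (log2 0.74, adjusted p = 0.00141). It was not called by edgeR (0.76, adjusted p = 0.207), nor in a fit over all 16 AOIs with mouse as the block (0.77, adjusted p = 0.408). Leaving out 1 mouse at a time moved the difference between 0.67, without control mouse 1175, and 0.92, without control mouse 1151, and the adjusted p stayed at 0.896 or above. With the signal over background of each mouse as a covariate the difference was 0.80, and with its depth 0.73. Within p16 high AOIs (5 against 4 mice) it was 0.91 and within p16 low AOIs (4 against 3) 0.57. At the level of AOIs, Dbp ranged from 110 to 195 in the 9 CSS areas, on 45 to 192 counts, and from 67.2 to 126 in the 7 control areas, on 29 to 137 counts.

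Hlf and Tef, which encode the other members of Dbp's family of factors, were also higher on average in CSS. Hlf (chromosome 11, 90336535 to 90390917) had signals of 22.4, 27.9, 33.1, 34.3 and 22.1 in CSS mice 1152, 1157, 1162, 1163 and 1170, and of 20.7, 18.2, 17.9 and 8.28 in control mice 1151, 1168, 1175 and 1182. Every CSS mouse lay above every control mouse in mean signal, although the centred values overlapped and Hlf was measured on as few as 3 counts in an AOI. The difference was 0.76 (SE 0.24, 0.27 to 1.25), 0.49 without control mouse 1182, and did not pass (limma adjusted p = 0.999). Tef (chromosome 15, 81802673 to 81826863) had 32.6, 49.9, 47.3, 53.9 and 42.3 in the CSS mice and 42.6, 37.0, 21.8 and 38.6 in the controls, in the same order. These groups overlapped, mouse 1175 was the lowest, and the difference of 0.37 (SE 0.21, -0.05 to 0.79) was 0.16 without it.

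Of the repressor arm, Per1 stood out. Per1 (chromosome 11, 69095108 to 69109965) encodes a repressor that responds both to the clock and to glucocorticoids. Its signal was 55.2, 67.7, 65.4, 90.7 and 99.3 in CSS mice 1152, 1157, 1162, 1163 and 1170, against 48.4, 54.6, 41.6 and 49.7 in control mice 1151, 1168, 1175 and 1182. All 5 CSS mice lay above all 4 controls, with mouse 1152 next to mouse 1168. The means were 75.7 ± 18.5 and 48.6 ± 5.35, a log2 difference of 0.58 (SE 0.18, 0.21 to 0.96) that did not pass (limma adjusted p = 0.999) and was 0.52 without mouse 1175. Per2 differed by 0.23 (SE 0.20), Per3 by 0.15 (SE 0.18) and Cry1 by 0.38 (SE 0.23), while Cry2, the other cryptochrome gene, had -0.34 (SE 0.23). For each of these 4 genes the groups overlapped.

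Genes of the activating arm were at or below the control level. Npas2 had 25.5, 27.6, 22.1, 24.5 and 31.3 in the CSS mice and 35.6, 30.7, 30.4 and 38.6 in the controls, so that mouse 1170 alone reached into the control range. Its difference was -0.39 (SE 0.19, -0.78 to 0.00). Arntl had 28.9, 20.3, 14.97, 12.3 and 16.6 against 22.8, 27.1, 24.6 and 16.6, with overlap at both ends of the ranges and a difference of -0.33 (SE 0.24). At 1.51 times the negative probe it was close to background. Clock differed by -0.10 (SE 0.18). Nr1d1 and Nr1d2, whose products repress Arntl, were among the brightest clock genes, with 98.4 ± 11.9 against 93.2 ± 19.6 for Nr1d1 (0.09, SE 0.18) and 109 ± 27.6 against 94.1 ± 21.3 for Nr1d2 (0.21, SE 0.20). Over the 21 clock genes measured, 16 lay above 0 and the median was 0.21, against 51.1% and 0.01 over all genes. Dbp, Per1 and Hlf, of the 21, had an unadjusted p under 0.05 with a higher level in CSS, against 1.65% of all genes. No clock gene had one with a lower level, against 1.63% of all genes. The list was chosen with earlier results of these data known, so these shares are no independent support. Without mouse 1175 the median was 0.08, with 14 of 21 above 0, while the median over all genes was -0.04. After quantile normalization and with 75th percentile scaling, 15 of 21 lay above 0, with medians of 0.15 and 0.17. With the depth of each mouse as a covariate 14 of 21 lay above 0, with a median of 0.10. Per-mouse values of 6 of these genes are plotted, followed by the differences of the whole list.

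**Figure D2:**
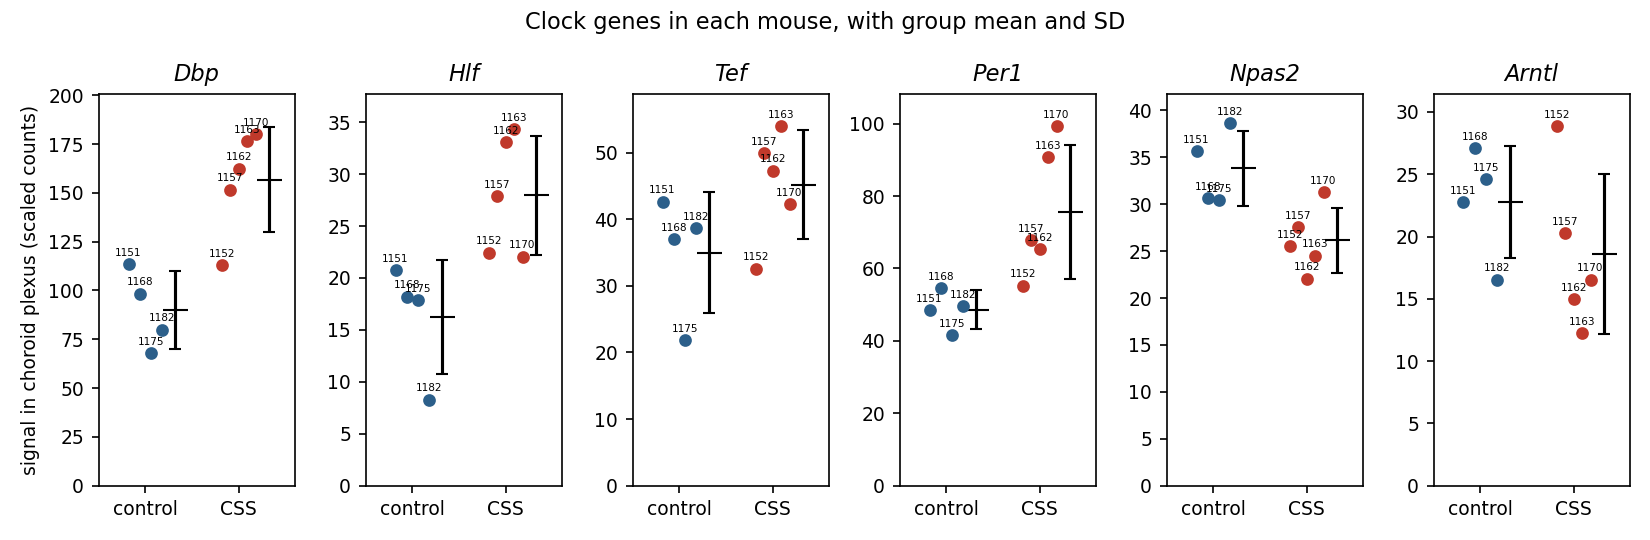
Signal of 6 clock genes in the choroid plexus of each mouse, with one point per mouse, its number, and the group mean with SD to the right. Dbp is at 113 to 180 in 5 CSS mice and 68.0 to 113.5 in 4 control mice, and Npas2 at 22.1 to 31.3 against 30.4 to 38.6.

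**Figure D3:**
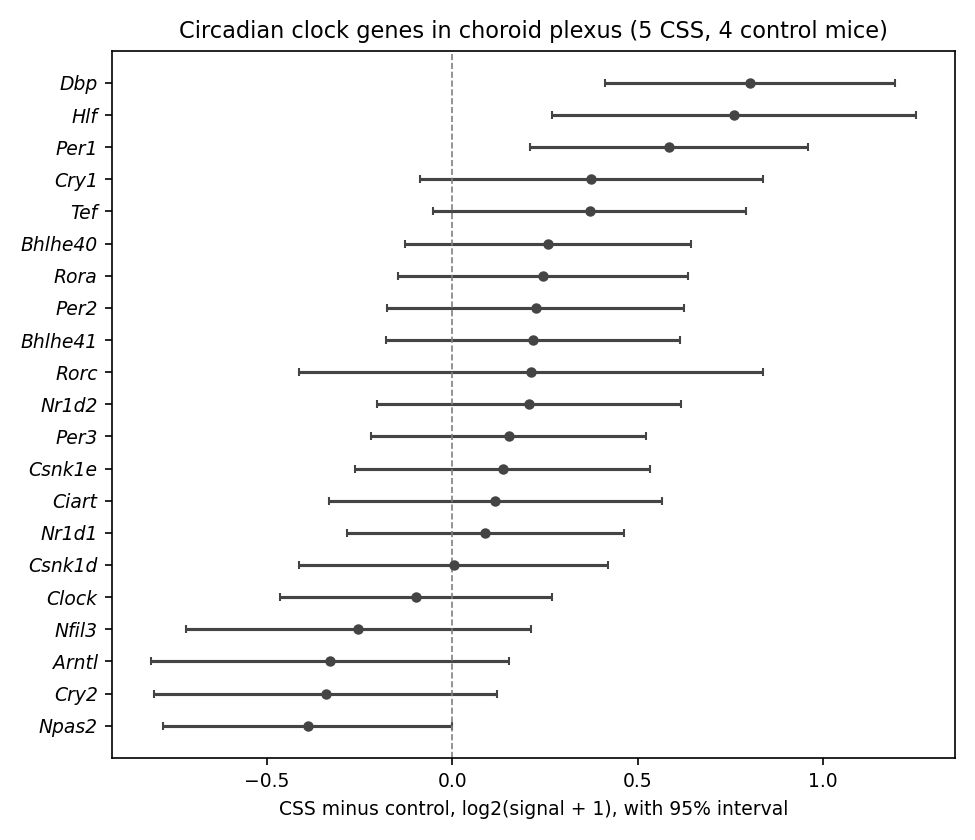
CSS minus control difference of the 21 clock genes in log2(signal + 1), with 95% intervals that are not adjusted for the number of genes, ordered by size. Dbp (0.80), Hlf (0.76) and Per1 (0.58) have intervals above 0, and Npas2 (-0.39) lies at the other end.

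The E-box through which the clock acts was read from RefSeq promoter sequences on GRCm38.p6, in the 250 bases before each annotated start, as letters CACGTG, which read the same on both strands. Of all 32851 starts searched, 6.02% held it, as did 6 of the 25 starts found for 17 clock genes, in Per1, Tef, Cry1, Bhlhe41 and Ciart. The windows around the E-box are shown for Per1, of the repressor arm, and Tef, of the output factors, with the E-box in capitals and the strand of the gene (plus for both).
Per1, chr11:69098746-69098825: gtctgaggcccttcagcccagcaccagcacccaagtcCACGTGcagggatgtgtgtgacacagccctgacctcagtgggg
Tef, first start, chr15:81802509-81802588: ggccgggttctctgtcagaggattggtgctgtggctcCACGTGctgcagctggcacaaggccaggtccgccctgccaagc
Tef, second start, chr15:81811239-81811318: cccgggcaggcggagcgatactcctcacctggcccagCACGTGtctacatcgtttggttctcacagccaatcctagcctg
Each E-box begins 127 to 166 bases before the start. The windows of Dbp and Hlf do not hold these letters, which says nothing of sites elsewhere in those genes.

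Whether the stress difference was larger in the choroid plexus than in hippocampus and cortex was tested in the same 9 mice. Again 0 of 19962 genes (0%) passed with limma (lowest adjusted p = 0.998), and 717 had an unadjusted p under 0.05. Dbp was among the 5 genes with the highest moderated t of this test. Its signal was 102 ± 17.3 in CSS (n = 6) and 88.1 ± 18.4 in control mice (n = 4) in CA1, 50.9 ± 10.2 and 42.6 ± 9.51 in CA3, 64.6 ± 10.1 and 60.9 ± 13.1 in MC, and 51.1 ± 7.52 and 50.04 ± 17.3 in SS. The groups overlapped in each of these subregions. The difference in the choroid plexus exceeded that in the other subregions by 0.61 (SE 0.16, limma adjusted p = 0.998). Per1 had 65.0 ± 10 in CSS and 46.7 ± 4.11 in control mice in SS (0.50, SE 0.15, limma adjusted p = 0.999), 115 ± 17.9 and 106 ± 23.03 in CA1, 59.9 ± 16.5 and 52.1 ± 11.4 in CA3, and 54.8 ± 4.87 and 60.4 ± 17.9 in MC. In SS the mice ran from 58.4 to 83.7 in CSS and from 41.6 to 50.6 in control mice. The groups of mice thus lay apart in mean signal of Per1 in SS as well as in the choroid plexus. The Per1 difference in the choroid plexus exceeded that in the other subregions by 0.41 (SE 0.19, limma adjusted p = 0.998). Hlf was lower on average in CSS in CA1 (39.4 ± 10.95 against 48.7 ± 10.8), CA3 and MC.

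**Figure D4:**
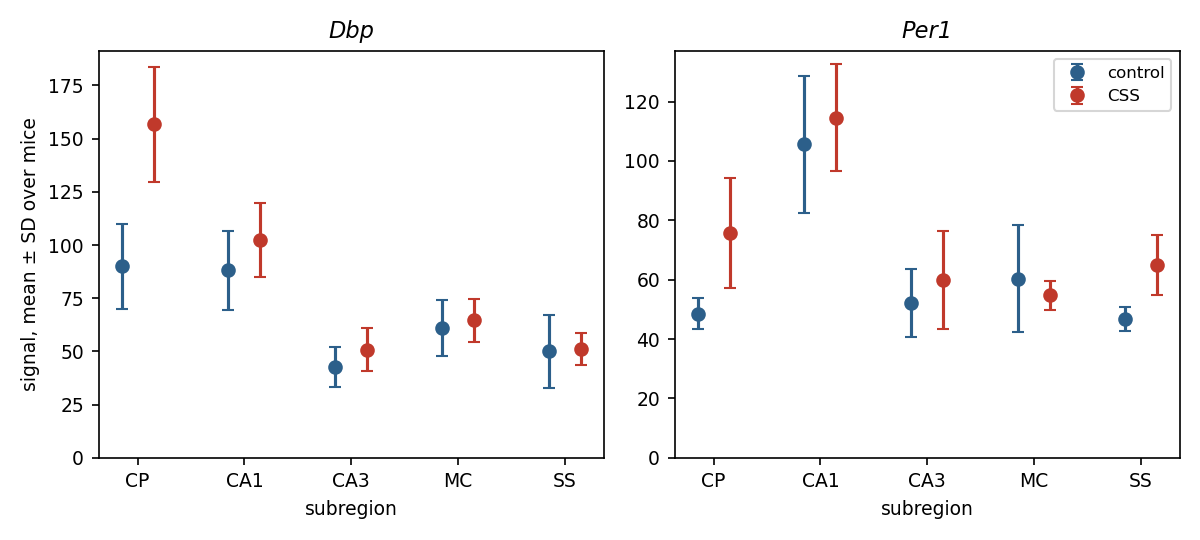
Mean signal ± SD over mice of Dbp and Per1 in CSS and control mice in the choroid plexus (CP) and 4 other subregions. Dbp is at 157 against 90.0 in CP and at 51.1 against 50.04 in SS, while Per1 is at 75.7 against 48.6 in CP and at 65.0 against 46.7 in SS.

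The other genes with the highest t of that test were Acad11, Fbln5, Mgp and Cish. Acad11, which encodes an acyl-CoA dehydrogenase of fatty acid breakdown, had signals of 38.9, 29.2, 33.1, 29.4 and 29.4 in CSS mice 1152, 1157, 1162, 1163 and 1170 and of 19.8, 16.7, 21.2 and 16.6 in control mice 1151, 1168, 1175 and 1182. The 2 groups did not overlap, and the mean level was 1.95 times the negative probe. The choroid plexus difference was 0.73 (SE 0.19, 0.35 to 1.12; 0.78 without mouse 1175) and exceeded that of the other subregions by 0.92 (SE 0.19, limma adjusted p = 0.998). Fbln5 and Mgp encode proteins of the extracellular matrix. In the choroid plexus Fbln5 had 51.1 ± 8.88 against 36.0 ± 2.42 (0.48, SE 0.18, groups apart) and Mgp 323 ± 53.1 against 261 ± 67.9 (0.33, SE 0.21, groups overlapping, and 0.14 without mouse 1175). Cish, an inhibitor of cytokine receptor signalling, had 71.3 ± 19.3 against 50.5 ± 9.75 (0.47, SE 0.21). At the other end stood Diaph3 (-0.87, SE 0.29), the phagocyte oxidase gene Cybb (-0.72, SE 0.23), the actin regulator Limk1 (-0.69, SE 0.25), Fam120b (-0.56, SE 0.20) and Ddit4 (-0.31, SE 0.18), of which Diaph3 and Cybb lay below 1.5 times the negative probe.

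Among genes with at least 2 times the negative probe, the 12 with the highest t in the choroid plexus itself included, beside Dbp and Per1, the cholesterol hydroxylase gene Cyp46a1 (32.2 ± 6.73 against 19.7 ± 3.91, log2 0.66, SE 0.20), the kinase gene Dclk2 (38.1 ± 3.70 against 25.98 ± 5.204, 0.54, SE 0.18), Tmem50b (0.55, SE 0.19) and Fam13b (0.55, SE 0.19). The centred groups did not overlap for Dclk2, Tmem50b and Fam13b and overlapped for Cyp46a1, and in signal Dclk2 overlapped too, with CSS mouse 1162 at 32.3 and control mouse 1182 at 33.1. Zfp995 also stood there, at 147 in CSS mouse 1170 and 8.28 to 31.9 in the other mice, with control mouse 1182 at 8.28. Single animals thus lay far from the rest in both groups. Its difference of 0.97 (SE 0.32) was 0.59 without mouse 1182. Among the 12 with the lowest t, Gm44150, Olfr424 and Rbfox1 were set by control mouse 1182, where they had 320, 124 and 201 against at most 33.7 in any other mouse. Amotl2, a regulator of the Hippo pathway at cell junctions, had 57.0 ± 13.3 in CSS and 84.7 ± 27.1 in control mice (-0.53, SE 0.21), and Pigu, of the enzyme complex that attaches lipid anchors to proteins, 23.7 ± 5.73 and 34.1 ± 5.47 (-0.54, SE 0.21, groups apart). None of these genes passed (limma adjusted p = 0.999).

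For the secreted proteins of this epithelium the groups overlapped gene by gene. Ttr had signals of 64723 in CSS mouse 1152, 69197 in 1157, 88720 in 1162, 91702 in 1163 and 84148 in 1170, against 95098 in control mouse 1151, 83838 in 1168, 48483 in 1175 and 87028 in 1182. The highest and the lowest value were both from control mice. The means were 79698 ± 12040 and 78612 ± 20637, a log2 difference of 0.05. For the few brightest genes the variance trend of the model gave a larger SE than a fit without it, such as 2.56 for Ttr. Without that trend the SE was 0.23 and the 95% interval -0.43 to 0.52. In the same way Enpp2, which encodes the lipid enzyme autotaxin, differed by 0.06 (-0.40 to 0.52), Igf2 by -0.01 (-0.49 to 0.47), Clu, the clusterin gene, by 0.05 (-0.44 to 0.55), and Kl, which encodes klotho, by -0.05 (-0.52 to 0.41). Igf2 and Kl were named for their known roles and not by the rule. Of the 27 secreted protein genes 20 lay above 0, with a median of 0.06 and no member with an unadjusted p under 0.05. The largest differences were those of the coagulation factor gene F5 (172 ± 27.5 against 135 ± 34.8, 0.36, SE 0.19, and 0.20 without mouse 1175) and the growth factor gene Mdk (0.28, SE 0.20). Without mouse 1175, 7 of 27 lay above 0 and the median was -0.15, and after quantile normalization 12 of 27 and -0.01.

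Genes that drive fluid secretion showed the same dependence on 1 control mouse. Of 33 genes of ion and water transport 26 lay above 0, with a median of 0.09 and none with an unadjusted p under 0.05; without mouse 1175, 5 of 33 lay above 0 and the median was -0.07. Aqp1, the water channel, had 360 ± 54.1 in CSS and 347 ± 96.2 in control mice (0.08, SE 0.22, -0.37 to 0.54). Slc12a2, the sodium, potassium and chloride cotransporter, had 335 ± 57.2 and 308 ± 78.1 (0.14, SE 0.22), and Slc4a10, a sodium and bicarbonate transporter, 540 ± 91.9 and 485 ± 121 (0.18, SE 0.24). These 3 were named for their roles and not by the rule. The calcium pump gene Atp2b3 had the highest difference of the list (758 ± 142 against 665 ± 189, 0.22, SE 0.26), and the potassium channel gene Kcnj13 had 735 ± 127 against 650 ± 171 (0.20, SE 0.26). For each of these 5 genes mouse 1175 had the lowest value of the 9 mice, and without it the differences of all 5 were below 0, from -0.13 for Aqp1 to -0.02 for Atp2b3.

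Among receptors and carriers, 21 of 35 lay above 0 (median 0.03, and 13 of 35 with a median of -0.04 without mouse 1175), and none had an unadjusted p under 0.05. The copper importer gene Slc31a1 differed by 0.38 (159 ± 31.3 against 124 ± 31.9, SE 0.20; 0.16 without mouse 1175), the prolactin receptor gene Prlr by 0.20 (SE 0.21) and the serotonin receptor gene Htr2c by 0.13 (SE 0.21). The organic anion carrier gene Slco1a5 (-0.60, SE 0.31) and the nucleoside carrier gene Slc28a3 (-0.42, SE 0.21) were at the other end. Of 28 genes of cell junctions and the epithelial skeleton 15 lay above 0 (median 0.02). The claudin gene Cldn1 differed by 0.38 (78.3 ± 11.97 against 61.6 ± 15.1, SE 0.19; 0.19 without mouse 1175, and 0.13 in p16 high against 0.70 in p16 low AOIs), Cldn2, the pore-forming claudin of this epithelium, by -0.01 (SE 0.20), and Jam3, an adhesion molecule, by 0.32 (33.0 ± 2.47 against 27.5 ± 2.39, SE 0.18), with centred groups apart for Jam3 alone in this list, although in signal CSS mouse 1162 (29.9) lay below control mouse 1151 (30.2). Over all genes the centred groups lay apart in 0.436% as higher in CSS and in 0.561% as lower. Patterning factors had 18 of 22 above 0 (median 0.09, and 12 of 22 with 0.005 without mouse 1175), with the choroid plexus regulator Otx2 at -0.01 (SE 0.21). Motile cilium genes had 17 of 34 above 0 (median 0.01), with their regulator Foxj1 at 0.06 (SE 0.20).

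Glucocorticoid target genes lay on both sides of 0. Of 30 members 17 lay above 0, with a median of 0.04. Per1 alone of the 30 had an unadjusted p under 0.05, which is near the share over all genes (3.28%). Sgk1, a kinase induced by these hormones that acts on ion channels, had signals of 227, 248, 283, 289 and 307 in CSS mice 1152, 1157, 1162, 1163 and 1170, against 296, 297, 150 and 210 in control mice 1151, 1168, 1175 and 1182. The groups overlapped and the difference of 0.23 (SE 0.21, -0.20 to 0.66) was 0.02 without mouse 1175. The metallothionein gene Mt2 had 46.9 ± 10.8 against 34.8 ± 4.78 (0.38, SE 0.19; 0.33 without mouse 1175) and Rgcc 54.0 ± 5.83 against 42.7 ± 9.76 (0.36, SE 0.18, and 0.22 without mouse 1175). Ddit4, which restrains growth signalling, had 46.3 ± 3.13 against 58.9 ± 13.6. Nr3c1, the gene of the glucocorticoid receptor, differed by -0.01 (82.6 ± 12.5 against 84.4 ± 18.6, SE 0.19, -0.39 to 0.37). Fkbp5 and Tsc22d3, which are classical targets and were named for that, differed by 0.08 (SE 0.25) and 0.06 (SE 0.20), Fkbp5 at 1.16 times the negative probe.

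Immune, senescence and damage genes held no call either. Interferon response genes had 15 of 33 above 0 (median -0.02), antigen presentation 8 of 22 (-0.03), inflammatory mediators and leukocyte adhesion 20 of 40 (0.00) and immediate early genes 11 of 31 (-0.05). Tap2, a peptide transporter for antigen presentation, had 43.1 ± 2.94 against 32.8 ± 5.13 (0.39, SE 0.18, groups apart), whereas Cd74, the invariant chain of MHC class II, had 65.5 ± 14.4 against 83.0 ± 22.0 (-0.33, SE 0.20, and -0.54 without mouse 1175). Of the 22 antigen presentation genes 1 was apart as higher in CSS and 1 as lower, against 0.436% and 0.561% of all genes. The cytokine gene Il6 (-0.78, SE 0.29) and the feedback inhibitor Socs3 (0.89, SE 0.32, and 0.37 without control mouse 1182) lay below 1.5 times the negative probe. Senescence regulators and secreted factors had 18 of 42 above 0 (median -0.06), p53 pathway and DNA damage genes 21 of 34 (0.10), and proliferation genes 14 of 29 (-0.01). Cdkn2a (chromosome 4, 89274473 to 89294619) had 20.5, 23.4, 18.1, 14.7 and 14.7 in CSS mice 1152, 1157, 1162, 1163 and 1170, and 20.5, 19.9, 25.03 and 24.8 in control mice 1151, 1168, 1175 and 1182. The groups overlapped at 1.51 times the negative probe, and the difference was -0.33 (SE 0.22, -0.78 to 0.12). It was 0.00 over all p16 high AOIs and -0.66 over all p16 low AOIs. In the mice with both areas alone, the difference in p16 high AOIs exceeded that in p16 low AOIs by 0.86 (SE 0.38, limma adjusted p = 0.9996). Cdkn1a, the gene of the cell cycle inhibitor p21, had 35.0 ± 6.203 and 33.6 ± 4.41 (0.03, SE 0.19, -0.36 to 0.42).

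Most lists of housekeeping and stress machinery had medians slightly above 0. So did genes of such levels at large. The median was 0.03 over all genes with at least 2 times the negative probe, and 55.9% of all genes above 1.5 times it lay above 0. Subunits of oxidative phosphorylation had 67 of 82 above 0 (median 0.08, and 41 of 82 with 0.00 after quantile normalization), with Ndufc1 of complex I at 120 ± 8.67 against 96.7 ± 22.8 (0.33, SE 0.18). Cytosolic ribosomal proteins had 56 of 81 (0.03, and 25 of 81 with -0.03 after quantile normalization), the mitochondrial ribosome 38 of 78 (-0.01) and the lysosome 19 of 29 (0.04). Heat shock proteins and chaperones had 18 of 23 (0.10), among them Hspb1 (70.7 ± 10.8 against 55.5 ± 8.77, 0.34, SE 0.18, and 0.22 without mouse 1175), and the unfolded protein response 19 of 27 (0.06), with the chaperone gene Hspa5 at 211 ± 27.8 against 169 ± 40.2 (0.33, SE 0.19, and 0.20 without mouse 1175). Antioxidant genes had 17 of 27 (0.07), and iron, copper and metallothionein genes 18 of 26 (0.07), with the copper pump gene Atp7b at 0.86 (SE 0.26, groups apart, and 0.55 without mouse 1182) on a signal of 1.29 times the negative probe. In that list of 26, 1 gene was apart as higher in CSS and 1 as lower, against 0.436% and 0.561% of all genes. The insulin-like growth factor system had 10 of 19 (0.03) and thyroid hormone and retinoid handling 16 of 24 (0.06). In all, 18 of the 25 lists had a median above 0, and 3 without control mouse 1175. Those 3 were the clock (0.08), patterning factors (0.005) and p53 (0.008) lists, the last 2 very close to 0. The number of lists above 0 was 19 with the signal over background of each mouse as a covariate and 12 with its depth. It was 11 with scaling to the 75th percentile and 14 after quantile normalization. The plot of the lists shows the medians with and without mouse 1175.

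**Figure D5:**
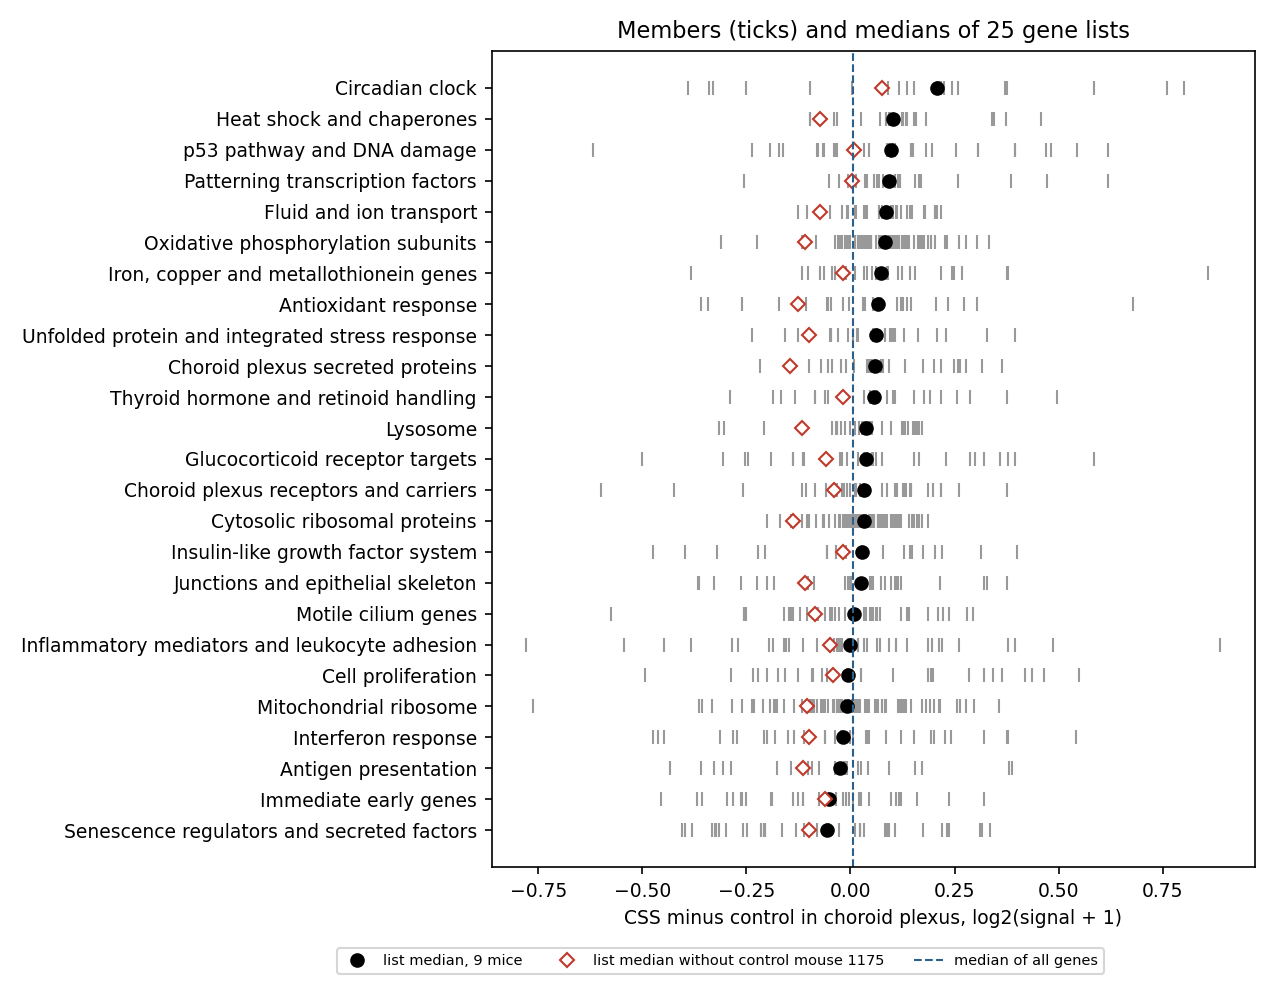
CSS minus control difference in log2(signal + 1) of the members of 25 gene lists (grey ticks) with the list median over 9 mice (filled) and without control mouse 1175 (open), and the median of all genes (dashed, 0.01). The clock list has the highest median (0.21, or 0.08 without the mouse), and the fluid and ion transport list goes from 0.09 to -0.07.

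Whether the stress difference depended on the p16 label was tested in the 7 mice with both areas. The difference between CSS and control was compared between p16 high and p16 low AOIs, and 0 of 19962 genes (0%) passed with limma, with 656 at an unadjusted p under 0.05. Cdkn2a itself ran from 14.7 to 28.0 in the 9 p16 high AOIs and from 7.36 to 24.8 in the 7 p16 low AOIs, so the labels overlapped in this RNA. It was measured on as few as 2 counts in an AOI, at 1.51 times the negative probe. How the labels were assigned is not stated, so the overlap does not judge them. The 2 lowest values of the test were of the haemoglobin genes Hbb-b1 (-2.80, SE 0.69) and Hba-a1 (-2.74, SE 0.71), carried by red blood cells. Hba-a1 had 426 and 422 in the p16 high and p16 low AOIs of CSS mouse 1152, 41.6 and 1511 in those of 1157, 1261 and 2383 in 1162, and 508 and 2431 in 1170. In control mice it had 744 and 390 in 1151, 90.03 and 53.6 in 1168, and 902 and 721 in 1175. It was thus higher in the p16 low area of 3 of 4 CSS mice and lower there in all 3 control mice. Over both areas its signal ran from 51.5 to 1822 in CSS and from 71.8 to 1843 in control mice, so the 2 groups covered the same range. In bulk areas of this kind, fewer cells of a type and less RNA per cell cannot be told apart.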

How the data were processed

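The deposited table gives 1 signal value per gene and AOI, which the authors scaled to a common median, as the values show. The submitters' processing notes name mm10 as the build, and no source used here names the tools that processed the reads. Dividing by the scaling step gave whole counts (within 0.01) for at least 99.98% of values in each AOI; in 7 choroid plexus AOIs the lowest value is above 1 count, so that the step was taken from the median. Choroid plexus AOIs were those whose labels name that subregion, and 99.4% of gene names matched a RefSeq table of GRCm38.p6.

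Values were log2(signal + 1), averaged per mouse, the replicate, after the mean of the 2 group means had been subtracted within each subregion and p16 label. Groups were compared with limma 3.58.1 in R 4.3.3 (lmFit, eBayes with a trend), 2-sided, with Benjamini-Hochberg adjustment over 19962 genes and a threshold of 0.05. edgeR 4.0.16 (quasi-likelihood, TMM) on recovered counts summed per mouse was an alternative. The code was tested on simulated data. With 1 brain per animal, p-values measure the spread between these mice. The AOIs of a mouse share its number in the labels because they come from 1 animal, and their deviations from the group means correlated at 0.03 to 0.48 over 7 mice.

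The members and the 25 gene lists and 10 marker lists were chosen with earlier results of these data known. Named genes were Cdkn2a and Cdkn1a, the 12 highest and 12 lowest moderated t among genes at 2 times the negative probe or more, up to 4 lowest p and 5 highest signals of a list, and up to 5 at each end of the other 2 tests; all clock genes were given after their values were seen. One gene is not reported here.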

Additional observations from a re-analysis of the deposited data

Results flagged for a closer look

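Of 182 groups of mice examined for a single distant value, 18 held one. Control mouse 1175 accounted for 7 of the 18 and control mouse 1182 for 5. Chance flags about 1 in 20 groups when genes are not picked by their values. Some genes here were picked that way, S1pr2 and Itgb2 among them, and the groups share the same mice. The count of 18 thus cannot be judged against that rate.

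Mouse 1175 was far below the other 3 control mice in the signal of Enpp2 (7250), Kl (727), Slc12a2 (192), Slc31a1 (76.7), Hspb1 (42.4) and Cldn1 (39.7), and far above them in the summed signal of neuronal markers (398). It was also the mouse with the most counts and the lowest signal over background. Of 15 choroid plexus epithelium markers, 9 had a difference between CSS and control mice above 0, and 4 did with the depth of each mouse as a covariate. Mouse 1182, with 1 AOI, was far above the other controls for Gm44150 (320.0), Rbfox1 (201) and Cybb (27.6) and far below them for Zfp995 (8.28) and Socs3 (2.76). Among the CSS mice, 1170 was far above the rest for S1pr2 (320.0) and Zfp995 (147), 1162 for Itgb2 (163) and 1157 for the summed signal of mural cell markers (553). Mouse 1163 was far below the rest for Cry2 (14.7) and Slco1a5 (4.90).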

How the results depend on the processing

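The count of genes called between CSS and control mice, 0, was 1 after quantile normalization, 1 with 75th percentile scaling (Dbp in both) and 2 with edgeR on recovered counts (Itgb2 and Olfr706). With the mouse as a replicate block it was 0, at a within-mouse correlation of 0.248, and with 432 genes at an unadjusted p under 0.05. Leaving out each mouse in turn gave 0 to 0 calls, with 373 to 985 genes at an unadjusted p under 0.05, and the other 2 tests gave 0 calls under each alternative run. Of the 77 genes named, 24 had a log2 difference of at least 0.5 in size and kept its direction under all 21 alternatives, and 25 others changed direction under at least 1. Many of the 24 were picked for a large difference in these same mice, and each alternative refits the same data. A kept direction is thus largely fixed in advance and is no independent support. Genes set by 1 mouse or AOI kept it too, such as Gm44150 (-1.93 to -0.32) and Itgb2 (0.01 to 1.76). The fits without the variance trend and without the p16 low AOI of mouse 1170 were chosen after seeing the data. Few mice and signals near background limit what could be detected.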
